A study of Rattus norvegicus with 19 samples.

Results

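The genes of serine and glycine synthesis and breakdown were followed in rat liver: Phgdh, Psat1 and Psph, which make serine, Shmt1 and Shmt2, which exchange serine and glycine, and Sds, Gldc, Amt, Gcsh and Agxt, which break them down or form glycine from glyoxylate. Probes were chosen by gene name, with older names and accessions brought to current symbols. This gave 14 of the 41012 non-control probes on the array, covering all 10 genes, of 15339 named genes with a probe. Of these, 13 passed the filter on dim probes, as did 25292 probes in all. The probe of Psat1 did not pass. The probes of these genes were taken by name, but the genes themselves were chosen with earlier results of these data known.

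Liver RNA came from 19 male Wistar rats, 8 weeks old when the diets began. The diets lasted 4 months, and the rats were killed fed, early in the morning. In the HP diet (6 rats) protein, mainly casein, supplied 45% of energy, carbohydrate another 45% and fat 10%. In the HF diet (6 rats) fat supplied 60%, and carbohydrate and protein 20% each. In the Control diet (7 rats) carbohydrate supplied 70%, protein 20% and fat 10%. The HP diet therefore differed from Control in protein and carbohydrate together, and the HF diet in fat and carbohydrate together. No allele or drug was given. Each array compared 1 rat (Cy5) with an equimolar pool of liver RNA (Cy3), without dye swaps. A log2 ratio is the level of a probe in 1 liver over that pool, and a log2 fold change is the difference of 2 group means of such ratios.

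The 19 arrays lay on 5 slides. Between 54.2% and 67.5% of spots were well above background in Cy5. All 8 hepatocyte markers were well above background on all 19 arrays. The array of Control 6 stood apart: its log ratios had an SD of 0.44, against 0.20 to 0.29 on the other arrays, and it received an array weight of 0.15. In this liver the median log2 ratio of the measured lymphocyte markers was 2.26, against at most -0.35 in each of the other livers. Results that rest on Control 6 are given with and without it. In whole liver RNA, fewer cells of a type and less RNA per cell cannot be told apart.

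Serine is made from the glycolytic intermediate 3-phosphoglycerate by Phgdh, Psat1 and Psph, in that order. In liver, serine can be broken down to pyruvate and ammonia by serine dehydratase (Sds), an enzyme long known in the rat to respond to dietary protein, and the pyruvate can feed glucose synthesis. Glycine is split in mitochondria by the glycine cleavage system, whose P, T and H proteins are encoded by Gldc, Amt and Gcsh and which passes a one-carbon unit to folate. Agxt encodes an aminotransferase that turns glyoxylate into glycine and can also use serine with pyruvate.

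The stretches of 250 bases upstream of the annotated start are shown for Agxt and Gldc, the genes called on both of their probes in HP over HF, and for the serine synthesis gene Phgdh. They are from RefSeq (GRCr8), on the strand of the gene, at chr9:101122543-101122792 (+) for Agxt, chr1:237375605-237375854 (-) for Gldc and chr2:188624790-188625039 (-) for Phgdh. For Agxt, RefSeq gives 2 starts, and the upstream one is shown. Capitals mark the letters of a searched motif on either strand.
Agxt: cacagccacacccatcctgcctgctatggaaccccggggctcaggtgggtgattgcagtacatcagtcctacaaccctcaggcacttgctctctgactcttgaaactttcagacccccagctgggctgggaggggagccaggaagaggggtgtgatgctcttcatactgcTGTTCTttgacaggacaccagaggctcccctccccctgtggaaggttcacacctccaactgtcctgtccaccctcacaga
Gldc: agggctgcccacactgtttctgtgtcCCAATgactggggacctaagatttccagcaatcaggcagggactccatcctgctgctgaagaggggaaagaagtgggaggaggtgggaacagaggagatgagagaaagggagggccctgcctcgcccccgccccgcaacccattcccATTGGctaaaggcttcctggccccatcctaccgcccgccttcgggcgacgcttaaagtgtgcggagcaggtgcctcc
Phgdh: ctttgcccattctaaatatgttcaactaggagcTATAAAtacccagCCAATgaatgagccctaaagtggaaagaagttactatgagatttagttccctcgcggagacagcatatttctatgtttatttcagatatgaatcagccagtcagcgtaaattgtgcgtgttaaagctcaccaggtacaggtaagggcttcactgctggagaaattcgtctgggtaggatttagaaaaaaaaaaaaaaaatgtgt
RefSeq entries were matched for 9 of the 10 members, all but Sds. Of 33469 rat promoters of this length, 17.5% held TGTTCT (part of the glucocorticoid receptor element), which occurred at -80 from the upstream start of Agxt and not before its other start (chr9:101127008-101127257). CCAAT occurred in 34.0% of promoters, with 2 matches in Gldc, 1 in Phgdh at -204 and 1 at -103 from the other start of Agxt. Among the members not shown it matched Amt at -49, Gcsh at -35, Shmt1 at -194 and Psat1 with 2 matches. TATAAA occurred in 12.9% of promoters, in Amt at -206 and in Phgdh at -217, where it did not overlap CCAAT. TGATGNAA (a C/EBP-ATF composite element, in 3.40%) and TGACGTCA (a cAMP response element, in 1.59%) matched none of the member windows. CACGTG (an E-box, in 5.59%) matched among the members only Shmt1, with 2 matches. A match is a description of these letters and not of a bound site.

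In HP livers against Control livers, serine dehydratase and Agxt rose. A call needed an adjusted p under 0.05 in limma, adjusted by the Benjamini-Hochberg method over 25292 probes. Of the 13 member probes, 3 were higher and 0 lower, namely Sds and both Agxt probes. Over all probes 0.447% were called (0.308% higher and 0.138% lower). That share rests on 113 probes, a number that lay between 26 (without HP 2 or HP 6) and 460 (without Control 7) when each liver was left out. The median log2 fold change of the 13 probes was 0.20, against -0.0096 over all probes, and 12 of them had a positive value. At an unadjusted p under 0.05 there were 9 member probes, where 14.4% of all probes passed. The counts of 12 and 9 take each probe of a gene separately, and the 9 include every probe of Gcsh and of Agxt. They also include Phgdh, which was lower in HP livers, and Amt, which did not pass that limit without Control 6. In HF livers against Control livers, 1 member probe was higher (Gcsh probe 1) and 1 lower (Gldc probe 1), with 3.46% of all probes called (1.72% higher and 1.73% lower) and a member median of -0.00096. HF and Control livers overlapped on all 13 member probes, while 1.90% of all probes did not overlap. In HP livers against HF livers, 5 member probes were higher (Sds, and both probes of Agxt and of Gldc) and 0 lower, with 7.08% of all probes called (3.81% higher and 3.27% lower) and a member median of 0.14. The comparisons share livers and are not independent of each other. HP and HF arrays shared only slide 1, with 2 HP livers and 1 HF liver, so most of each HP over HF value compares arrays of different slides.

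**Figure D1:**
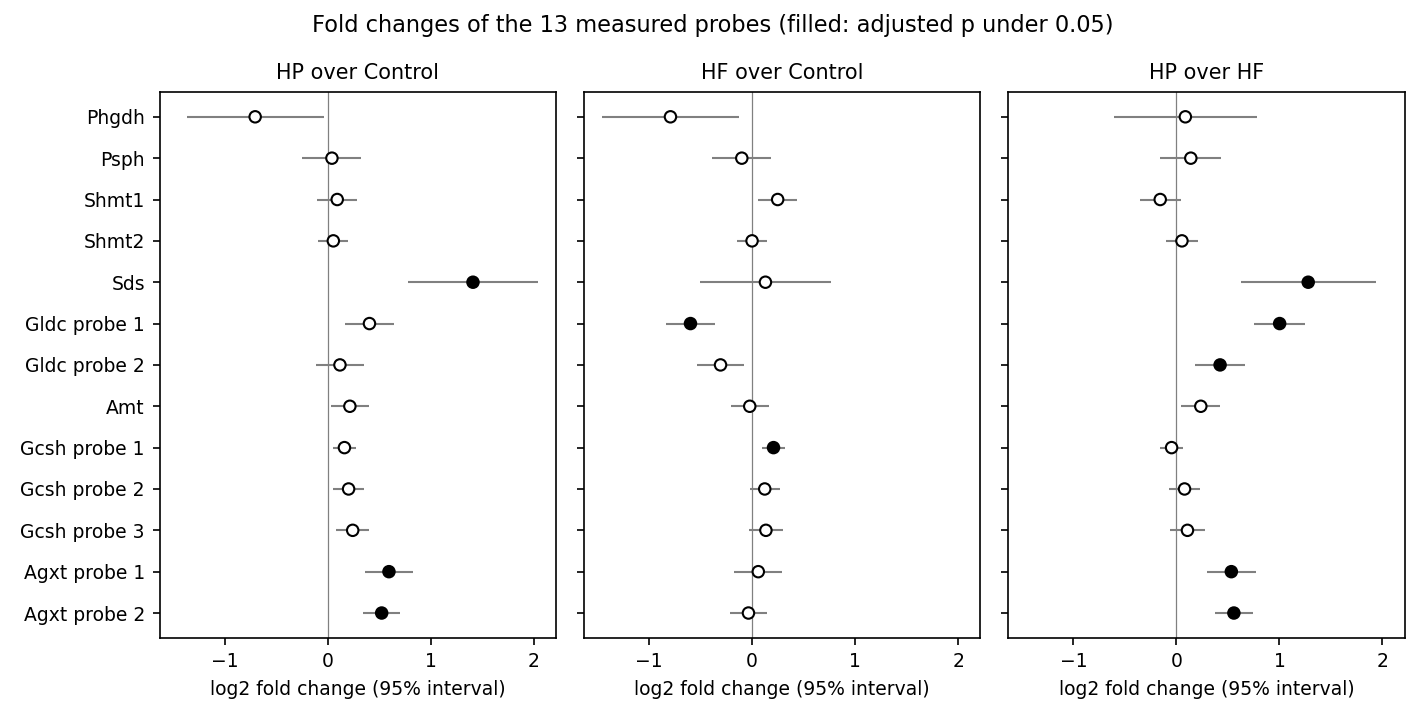
Log2 fold change (horizontal axis) of the 13 measured member probes, with 95% intervals from limma, in HP over Control, HF over Control and HP over HF. Filled points have an adjusted p under 0.05: 3 probes in HP over Control, 2 in HF over Control and 5 in HP over HF.

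Serine synthesis was measured by Phgdh and Psph. Phgdh, the enzyme of the first step (probe at chr2:193147951-193148010 on the rat build rn4, minus strand), had log2 ratios from -0.87 to -0.65 with a median of -0.77 in HP livers. In HF livers they ran from -1.24 to -0.43 (median -0.83), and in Control livers from -0.89 to 2.05 (median -0.30). Only Control 6 lay above 0.05, and the ranges of all 3 groups overlapped. The log2 fold change was -0.71 ± 0.32 in HP over Control (SE, adjusted p = 0.321) and -0.79 ± 0.32 in HF over Control (adjusted p = 0.216). Without Control 6 these values were -0.36 ± 0.14 (adjusted p = 0.271) and -0.44 ± 0.14 (adjusted p = 0.104). Phgdh was thus called in neither comparison, with or without Control 6, and leaving that liver out moved its value by more than 1.5 times. Within slides, HP minus Control was -0.36, -0.01 and, on the slide of Control 6, -2.83, and HF minus Control was -0.62, -0.57 and -0.87. The 3 kept probes annotated as similar to 3-phosphoglycerate dehydrogenase, outside the naming rule, had log2 fold changes from -0.07 to 0.03 in HP over Control and from -0.09 to -0.05 in HF over Control, and 0.06 to 0.21 in Control 6. None was called. For Phgdh itself HP over HF was 0.09, with a 95% interval from -0.60 to 0.78.

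Control 6 was high both for Phgdh and for the lymphocyte list. Of 19 listed lymphocyte markers 7 were measured (Cd3d, Cd3g, Cd8a, Cd79b, Ltb, Cd37 and Ccr7). Their median log2 ratio lay between -0.80 and -0.35 in HP livers, between -0.84 and -0.59 in HF livers and, Control 6 apart, between -0.68 and -0.56 in Control livers. Cd3e and Cd2, which mark T cells, were well above background on 1 of 19 arrays each. The part of the lymphocyte markers in the Phgdh value of Control 6 was not tested.

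**Figure D2:**
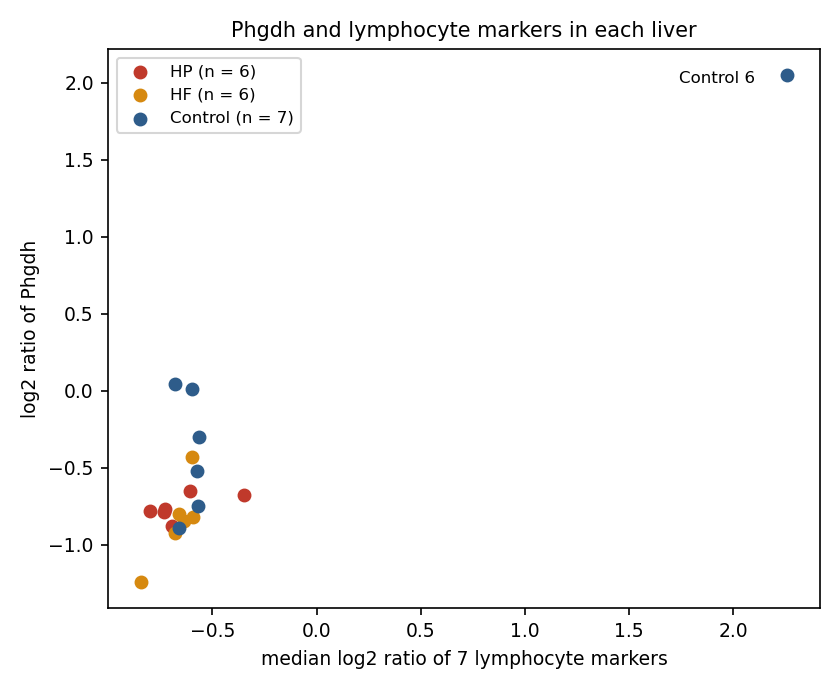
Log2 ratio of Phgdh (vertical axis) against the median log2 ratio of 7 lymphocyte markers (horizontal axis), 1 point a liver, with HP, HF and Control livers in red, orange and blue. Control 6 lies at 2.05 for Phgdh and 2.26 for the markers, away from the other 18 livers.

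Psph, the phosphatase of the last step (chr12:27969823-27969882, minus strand), ran from -0.25 to 0.42 in HP livers, from -0.60 to 0.30 in HF livers and from -0.13 to 0.39 in Control livers. Its groups lay over each other. The log2 fold change was 0.04 in HP over Control (95% interval -0.25 to 0.33) and -0.10 in HF over Control (-0.39 to 0.19). The RefSeq start of Psph lies on the plus strand of chr12 in GRCr8, whereas its probe lies on the minus strand in rn4. The orientation of that region was not compared between the builds. Psat1, the aminotransferase between these steps (chr1:219286277-219290212, minus strand), was well above background in Cy5 on 0 of 19 arrays, and no fold is given for it.

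Shmt1 and Shmt2 encode the cytosolic and mitochondrial enzymes that exchange serine and glycine. Shmt1 (chr10:46936747-46937074, minus strand) ran from -0.29 to 0.16 in HP livers, from -0.14 to 0.20 in HF livers and from -0.42 to 0.13 in Control livers. Its log2 fold change in HF over Control was 0.25 ± 0.09 (adjusted p = 0.172), in HP over Control 0.09 and in HP over HF -0.16. Shmt2 (chr7:67494744-67494803, minus strand) lay between -0.32 and 0.21 in every liver. Its 95% intervals were -0.09 to 0.20 in HP over Control, -0.15 to 0.15 in HF over Control and -0.10 to 0.21 in HP over HF. None of the Shmt values passed the test.

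Sds had the largest positive log2 fold change of the member probes in both comparisons of HP livers. Its probe lies at chr12:37284530-37284589 (rn4, minus strand). Log2 ratios ran from -0.47 to 1.01 with a median of 0.64 in HP livers, from -1.43 to 0.48 with a median of -1.03 in HF livers, and from -1.62 to -0.15 with a median of -1.05 in Control livers. In HP livers 5 of 6 values were above 0, with HP 5 as the low one, and every Control value was below 0. HF 4, at 0.48, stood above the next HF liver at -0.60. Group means were 0.45 ± 0.54 in HP livers (SD, n = 6), -0.83 ± 0.71 in HF livers (SD, n = 6) and -0.96 ± 0.53 in Control livers (SD, n = 7).

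Sds was 2.65-fold higher in HP than in Control livers (log2 fold change 1.41 ± 0.30 SE, adjusted p = 0.0439) and 2.43-fold higher in HP than in HF livers (1.28 ± 0.31, adjusted p = 0.0167). In HF over Control the log2 fold change was 0.13 ± 0.30 (adjusted p = 0.877), with a 95% interval from -0.50 to 0.76, and it was -0.13 without HF 4. Within the slides that held both diets, HP minus Control was 1.86, 1.67 and 1.76. The HP over Control call lay close to the threshold: it was lost in 13 of 19 omissions of a liver (Control 1, 2, 3, 5 and 6, HP 1, 2, 3, 4 and 6, and HF 2, 5 and 6), with adjusted p up to 0.125, while the log2 fold change stayed between 1.30 and 1.59. It was also lost in 6 of 12 other settings, with adjusted p up to 0.151. The HP over HF call held in all 12 other settings and all 19 omissions, and HP minus HF on slide 1 was 1.75.

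A further probe, annotated in the files only by an entry for rat serine dehydratase DNA and outside the naming rule, was above background on all 19 arrays. It averaged 0.55 ± 0.57 in HP livers (SD, n = 6), -0.72 ± 0.90 in HF livers (SD, n = 6) and -0.75 ± 0.53 in Control livers (SD, n = 7). Its log2 fold change was 1.30 ± 0.35 in HP over Control (adjusted p = 0.0999), 1.26 ± 0.36 in HP over HF (adjusted p = 0.0371) and 0.04 in HF over Control. Over the 19 livers the probes had a Spearman correlation of 0.81, given as a description, since livers of a diet share it. They differed by more than 0.5 on the log2 scale in 8 of 19 livers. HP 5, lowest for Sds among HP livers at -0.47, was at 0.39 on this probe, and HP 4 was at 0.63 for Sds and -0.20 on this probe. HF 4 was at 0.48 and 0.44.

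**Figure D3:**
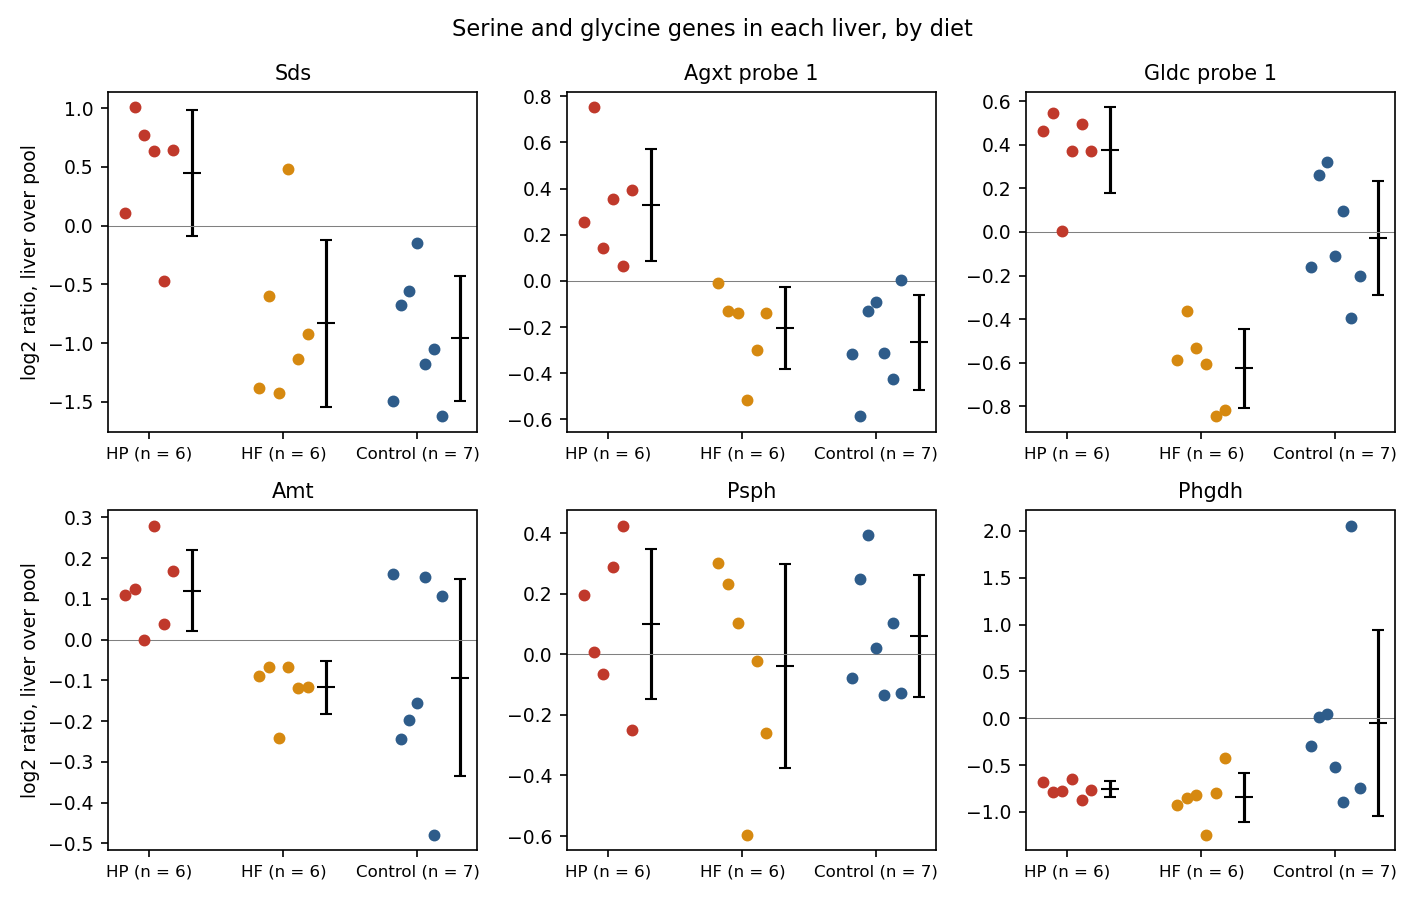
Log2 ratio over the liver RNA pool (vertical axis) of 6 member probes in each of the HP (red, n = 6), HF (orange, n = 6) and Control (blue, n = 7) livers, with mean and SD in black. Every HP liver lies above every Control liver for Agxt probe 1, every HP liver lies above every HF liver for Agxt probe 1, Gldc probe 1 and Amt, and Control 6 stands alone for Phgdh.

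Of the glycine cleavage genes, Gldc, the glycine decarboxylase, had the largest log2 fold changes, and its lowest mean was in HF livers. Gldc probe 1 (chr1:233851017-233857495, minus strand, named as predicted in the files) ran from 0.0034 to 0.55 in HP livers (median 0.42), from -0.85 to -0.36 in HF livers (median -0.60) and from -0.39 to 0.32 in Control livers (median -0.11). All HP livers lay above all HF livers, and Control livers lay between, with overlap on both sides. Its log2 fold change was 1.00 ± 0.12 in HP over HF (SE, adjusted p = 7.0e-05), or 2.00-fold. In HF over Control it was -0.60 ± 0.11 (adjusted p = 0.0043), or 0.66-fold, and in HP over Control 0.40 ± 0.11 (adjusted p = 0.120), which was not called.

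The HF over Control and HP over HF calls of Gldc probe 1 held in all 12 other settings and all 19 omissions. Within slides, HF minus Control was -0.43, -0.52 and -1.08, and HP minus Control was 0.58 on each of the 3 slides with both. On slide 1 HP minus HF was 1.01. Gldc probe 2 (chr1:233893615-233893674, minus strand) ran from -0.09 to 0.38 in HP livers, from -0.42 to -0.0019 in HF livers and from -0.36 to 0.46 in Control livers. It was higher in HP over HF by 0.42 ± 0.12 (adjusted p = 0.0297), a call lost on leaving out any 1 of 8 livers (HP 1, 2, 4 and 5, and HF 3, 4, 5 and 6; adjusted p up to 0.0684), with the deposited matrix (0.0552) and with Cy5 alone (0.158). In HF over Control it had -0.31 ± 0.11 (adjusted p = 0.159), and without Control 6 -0.38 ± 0.10 (adjusted p = 0.0359). It was called there in 3 of 11 other settings as well. The probes thus had the same signs in each comparison, with smaller values on probe 2.

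Amt, the aminomethyltransferase (chr16_random:1004996-1005055, plus strand), ran from -0.00087 to 0.28 in HP livers, from -0.24 to -0.07 in HF livers and from -0.48 to 0.16 in Control livers. The RefSeq start of Amt lies on chr8 in GRCr8, away from that placement of the probe. HP and HF livers did not overlap, as for 4 of 13 member probes and 4.98% of all probes in that comparison. The log2 fold change in HP over HF was 0.24 ± 0.09 (adjusted p = 0.131), and without Control 6, which enters the shared estimate of spread, the adjusted p was 0.0464. In HP over Control Amt had 0.21 ± 0.09 (adjusted p = 0.270), and 0.15 ± 0.07 without Control 6 (adjusted p = 0.380). Within slides, HP minus Control was 0.03, -0.05 and, on the slide of Control 6, 0.56. A probe annotated as similar to Amt, outside the naming rule, had 0.24 ± 0.06 in HP over HF (adjusted p = 0.0220).

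Gcsh, the lipoate-carrying H protein, had 3 probes. Probe 1, named by symbol, was placed off chr19, where probes 2 and 3 and the RefSeq start of Gcsh lie. Gcsh probe 1 (chr10_random:867145-867643, minus strand) ran from -0.12 to 0.13 in HP livers, from -0.05 to 0.11 in HF livers and from -0.26 to -0.03 in Control livers. It was higher in HF over Control by 0.21 ± 0.05 (adjusted p = 0.0327), a 1.15-fold difference. That call was lost on leaving out any 1 of 9 livers (Control 2, 3, 4 and 6, and HF 1, 2, 3, 4 and 5; adjusted p up to 0.0786) and in 5 of 12 other settings, and within slides HF minus Control was 0.14, 0.29 and 0.23. Probes 2 and 3 (chr19:47093004-47093063 and chr19:47091948-47093006, minus strand) had 0.12 and 0.13 in the same comparison and were not called. In HP over Control the 3 probes had 0.16, 0.20 and 0.24, with adjusted p from 0.166 to 0.192. Without Control 6 they had 0.14, 0.17 and 0.20. On the slide of Control 6, HP minus Control was 0.26, 0.34 and 0.44 for probes 1, 2 and 3. It was 0.09, 0.06 and 0.05 on slide 1, and 0.03, 0.11 and 0.13 on slide 4.

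Agxt, which forms glycine from glyoxylate, was higher in HP livers than in either other group on both probes. Agxt probe 1 (chr9:92418052-92418111, plus strand) ran from 0.07 to 0.75 in HP livers (median 0.31), from -0.52 to -0.01 in HF livers (median -0.14) and from -0.59 to 0.0036 in Control livers (median -0.31). Agxt probe 2 (chr9:92412628-92412687, plus strand) ran from -0.06 to 0.57 in HP livers (median 0.18), from -0.52 to -0.21 in HF livers (median -0.33) and from -0.55 to -0.09 in Control livers (median -0.28). On both probes all 6 HP livers lay above every HF and every Control liver. Of all probes 0.783% did not overlap between HP and Control, among them 2 of the 13 member probes.

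In HP over Control the log2 fold change of Agxt was 0.59 ± 0.11 on probe 1 (adjusted p = 0.0242) and 0.52 ± 0.09 on probe 2 (adjusted p = 0.0119). In HP over HF it was 0.53 ± 0.11 (adjusted p = 0.0073) and 0.56 ± 0.09 (adjusted p = 0.00062). In HF over Control it was 0.06 and -0.04, with 95% intervals from -0.17 to 0.29 and from -0.22 to 0.14. Within slides, HP minus Control was 0.62, 0.56 and 0.69 on probe 1 and 0.45, 0.54 and 0.59 on probe 2. The HP over Control call of probe 1 was lost on leaving out any 1 of 5 livers (Control 1 and 2, and HP 2, 4 and 6; adjusted p up to 0.0681), and that of probe 2 in none of the 19 omissions. With slide as a fixed block the adjusted p was 0.0907 and 0.0608, with scaling between arrays 0.117 and 0.098, and with Cy5 alone 0.0941 on probe 1. With that same block the HP over HF calls were lost too, at adjusted p = 0.227 and 0.0913, and that of probe 1 with Cy5 alone as well (0.0841). On slide 1 HP minus HF was 0.32 on probe 1 and 0.29 on probe 2.

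The 8 hepatocyte markers moved in part with the same comparison. Their median log2 ratio per liver ran from 0.39 to 0.72 in HP livers, from 0.25 to 0.35 in HF livers and from 0.26 to 0.47 in Control livers. Of the 8 markers 4 were called higher in HP over HF, with a median of 0.22, where 3.81% of all probes were higher. In HP over Control 0 were called, and the median of the 8 fold changes was -0.01. The marker median per liver, a different measure, had a group median of 0.58 in HP livers and 0.40 in Control livers. In HF over Control 1 was lower (median -0.10), where 1.73% of all probes were lower. Their part in the HP over HF values of Agxt, Gldc and Sds was not tested. Nor was it tested for the HP over Control values of Sds and Agxt or the HF over Control values of Gldc.

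Synthesis was set against breakdown within each liver. The mean log2 ratio of Phgdh and Psph minus that of Sds averaged -0.78 ± 0.62 in HP livers (SD, n = 6), 0.39 ± 0.93 in HF livers (SD, n = 6) and 0.97 ± 0.69 in Control livers (SD, n = 7). Without HF 4, at -1.40, the HF mean was 0.75 ± 0.33 (SD, n = 5), and without Control 6 the Control mean was 0.77 ± 0.50 (SD, n = 6). The synthesis side spanned -0.51 to -0.18 in HP livers, -0.92 to -0.31 in HF livers and -0.51 to 1.08 in Control livers, with medians of -0.32, -0.35 and -0.19. Against the mean of the glycine cleavage genes, synthesis averaged -0.50 ± 0.14 in HP livers (SD, n = 6), -0.21 ± 0.26 in HF livers (SD, n = 6) and 0.09 ± 0.67 in Control livers (SD, n = 7). The HF mean was -0.11 ± 0.07 without HF 4 (SD, n = 5), and the Control mean was -0.13 ± 0.32 without Control 6 (SD, n = 6). The HF minus Control difference of -0.31 was -0.21 without HF 4 and -0.08 without Control 6, and the means without both livers differed by less than their SDs. These are log ratios to the pool, so they rank livers and do not compare the amounts of transcripts.

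**Figure D4:**
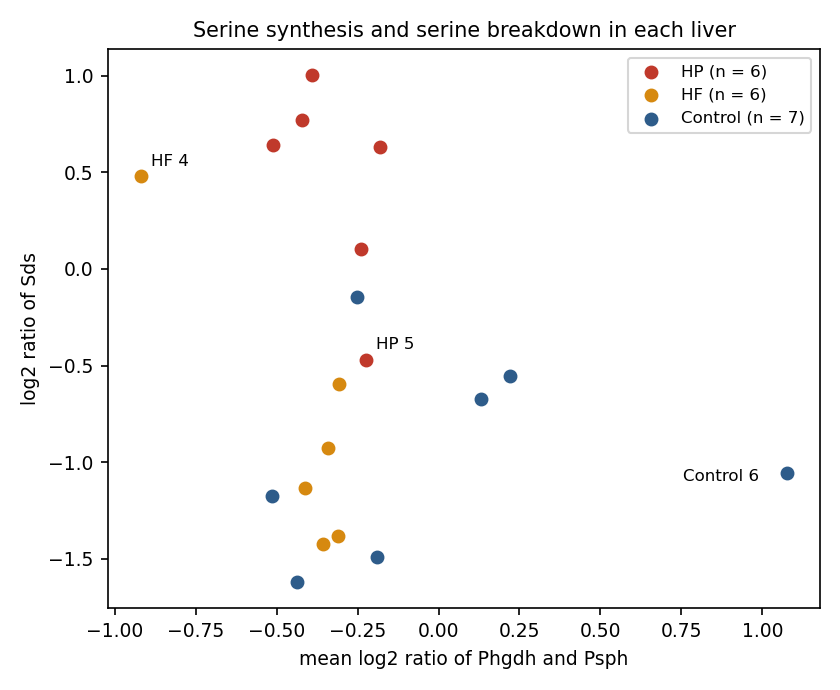
Log2 ratio of Sds (vertical axis) against the mean log2 ratio of Phgdh and Psph (horizontal axis), 1 point a liver, with HP, HF and Control livers in red, orange and blue. HF 4 lies with the HP livers for Sds at 0.48, HP 5 lies at -0.47, and Control 6 lies at 1.08 for synthesis.

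Other genes of serine and glycine turnover were counted in the same way. Of 53 listed genes 46 were measured, by 54 probes. In HP over Control 1 probe was higher and 0 lower, in HF over Control 0 higher and 1 lower, and in HP over HF 8 higher and 0 lower, where 0.447%, 3.46% and 7.08% of all probes were called. As over all probes, most calls were in HP over HF. Medians over the 54 probes were 0.05, -0.014 and 0.07, against -0.0096, -0.011 and -0.0014 over all probes. Cbs, which joins serine to homocysteine, was higher in HP over Control by 0.62 ± 0.10 (adjusted p = 0.0085) and in HP over HF by 0.46 ± 0.10 (adjusted p = 0.0070). Sptlc2, a subunit of the enzyme that starts sphingolipid synthesis from serine, was lower in HF over Control, with -0.28 ± 0.07 (adjusted p = 0.0180). In HP over HF the phosphatidylserine synthases Ptdss2 and Ptdss1 were higher by 0.37 and 0.29, glutathione synthetase Gss by 0.34 and the folate enzyme Mthfd1 by 0.48. Slc25a38, a mitochondrial glycine carrier, was higher by 0.24, and Sptlc1, the partner of Sptlc2, by 0.24 and 0.22 on 2 of its 3 probes. The other and brightest probe had 0.17 (adjusted p = 0.162). In the choline to glycine list, all 7 genes were measured by 9 probes and 0 were called in any comparison.

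Across the 19 livers, the named genes with log ratios ranked most like those of Sds were Or52s6 (Spearman correlation 0.86), Got1 (0.86), Nnmt (0.84), Dnase2b (0.82) and Gls2 (0.81), among 10769 genes. For Phgdh they were Clic1 (0.85), Srsf9 (0.84), Rpl14 (0.83), Tax1bp3 (0.78) and Rpl41 (0.78). Among the members, Sds had correlations of 0.56 with Gldc and 0.56 with Agxt, and -0.03 with Phgdh. Phgdh and Psph had 0.10. These values describe livers that share a diet and a common RNA pool.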

How the data were processed

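Members and lists were chosen with earlier results of these data known. Signal and background intensity in the deposited scanner files were read, per the file headers, with Agilent Feature Extraction 10.5.1.1, a version also given in the submitters' processing notes. The authors also deposited log2 values for 22764 features per array (column median 8.20). Their scale and centring are not stated. Within each array their correlation with the log2 Cy5 signal across features was 0.995 to 0.999. With feature means removed, their correlation with the log ratios across features was 0.911 to 0.976 on each array.

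Log2 ratios of Cy5 over Cy3 were computed from mean signals in R 4.3.3 with limma 3.58.1: normexp with an offset of 50, leaving out 40 spots on 5 arrays whose background exceeded the signal by more than 50, then loess within each array with control spots at weight 0. That omission follows an earlier analysis of these data. Outlier spots were dropped and spots of a probe averaged. Probes well above background in Cy5 on at least 6 of 19 arrays were kept. The arrays give no read depth, and their number limits the precision.

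One limma model over the 3 diets was fitted on 25292 probes, without a block, and all tests were two-sided. It was tested on simulated data first. The text names every member, pathway genes called in any comparison (at most 10, by p), marker medians, and the 5 genes most like Sds and Phgdh. Per the labels the rats are separate animals. Replicate numbers were checked for pairing after group means were removed: 18 like-numbered pairs had a mean correlation of -0.0092, against 0.0011 for 102 other pairs, so no pairing was used. Probe positions are those of the files (rn4), and exon annotation of that build was not used here. Alternatives covered background, signal, channel, scaling, filter, probes of a gene, slide, replicate number, array weights and omission of each liver.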

Additional observations from a re-analysis of the deposited data

Results flagged for a closer look

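In 48 sets of values of 1 diet group, 7 values, from 5 livers, lay farther from their group than Dixon's critical value allows (0.625 for 6 livers, 0.568 for 7). Chance flags about 1 in 20 such sets. Among the sets are those of Psat1, whose probe did not pass the filter on dim probes, and none of the 7 values is from it. The sets share values, through probes of the same gene and differences built from the same genes, so the 7 values are not independent of each other. Phgdh in Control 6 was at 2.05, with the next Control liver at 0.05. Synthesis minus glycine cleavage in the same liver was 1.45, with the next at 0.24. In HF 4, synthesis minus Sds was -1.40 and synthesis minus glycine cleavage was -0.72, the lowest HF values, with the nearest at 0.29 and -0.20. Gldc probe 1 was 0.0034 in HP 3, the lowest HP liver, with the nearest at 0.37. Amt was -0.24 in HF 3, the lowest HF liver, with the nearest at -0.12. Shmt2 was 0.21 in HP 4, the highest HP liver, with the nearest at -0.0046.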

How the results depend on the processing

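The count of member probes called in HP over Control (3) became 1 with Cy5 alone, 0 with scaling between arrays and 0 with slide as a fixed block, and between 1 and 3 when each liver was left out. It became 2 with background fitted on every spot, with processed signals, with no filter on dim probes and with 1 probe a gene. In HF over Control (2) it became 1 with processed signals, 1 with the deposited matrix, 1 with Cy5 alone and 1 with scaling, and between 1 and 2 when each liver was left out. It became 3 with background fitted on every spot and 3 with array weights. In HP over HF (5) it became 3 with Cy5 alone, 3 with 1 probe a gene and 3 with slide as a fixed block. It became 4 with the deposited matrix and 6 with array weights, and lay between 4 and 6 when each liver was left out. The smaller count with 1 probe a gene comes with 9 member probes in place of 13. Over all probes, the calls in HP over Control (113) became 6 with scaling, 24 with slide as a fixed block and 282 with array weights, and between 26 and 460 when each liver was left out. With slide as a fixed block, those in HF over Control (874) became 474 and those in HP over HF (1791) became 365. When each liver was left out, they lay between 649 and 999 and between 1332 and 2518. The replicate block left the member counts at 3, 2 and 5 and moved the calls over all probes in HP over Control to 209, and the check of replicate numbers gave no pairing.

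Signs turned only for values that were not called. In HF over Control, Sds was -0.0044 with background fitted on every spot, -0.011 with scaling, -0.23 with slide as a fixed block and -0.069 with array weights. Agxt probe 1 was -0.014 with scaling. Agxt probe 2 was 0.00026 with processed signals, 0.00057 with the deposited matrix, 0.10 with Cy5 alone, 0.046 with slide as a fixed block and 0.00035 with the replicate block. Amt was 0.040 with the deposited matrix, 0.0016 with slide as a fixed block and 0.010 with the replicate block. Shmt2 was 0.013 with background fitted on every spot, 0.041 with the deposited matrix, 0.091 with Cy5 alone, 0.0068 and 0.0011 with slide as a fixed and a random block and 0.0034 with the replicate block. In HP over Control, Shmt1 was -0.010 with scaling. In HP over HF, Phgdh was -0.096 with slide as a fixed block, Gcsh probe 1 was 0.037 with the deposited matrix, and with Cy5 alone Shmt2 was -0.042 and Gcsh probe 3 -0.014. When each liver was left out, values in HF over Control ran from -0.13 to 0.26 for Sds, -0.17 to 0.011 for Psph, -0.088 to 0.019 for Amt, -0.077 to 0.00035 for Agxt probe 2 and -0.047 to 0.036 for Shmt2, and Psph in HP over Control ran from -0.026 to 0.11. The causes were not tested.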
